A study of Homo sapiens with 10 samples.

Results

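DNMT1 copies CpG methylation onto newly made DNA, and it does so together with a set of proteins that find hemimethylated sites, open the chromatin or tie the reaction to the replication fork. The genes described here are 10 such partners, namely UHRF1, UHRF2, HELLS, CDCA7, CDCA7L, ZBTB24, USP7, PCNA, LIG1 and PCLAF. They were chosen by name for their role in replication-coupled maintenance methylation, by a rule that holds no expression value, from 58884 genes in the count tables. All 10 were found by Ensembl identifier, and all 10 passed the filter on low counts. DNMT1 itself was followed beside them.

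RNA was sequenced from HCT116, a human colorectal carcinoma cell line, and from DNMT1 KO cells, a derivative of it in which DNMT1 was targeted. According to the study's description, the derivative is not a null. It makes a shortened DNMT1 at a reduced level, and the stretch that binds PCNA is among the parts it lacks. Neither group was treated with any agent, and only 1 derivative line was used. HCT116 was represented by 6 libraries, numbered 1, 2, 3, 7, 8 and 9, and DNMT1 KO by 4, numbered 1 to 4, which the study describes as independent cultures. Batch 1 of the labels holds replicate 1 of both lines and batch 2 holds replicates 2 and 3 of both, while batch 3 is DNMT1 KO replicate 4 alone and batch 4 is HCT116 replicates 7 to 9.

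In the textbook account, UHRF1 binds hemimethylated CpGs behind the fork, ubiquitinates histone H3 and the PCNA-associated factor PCLAF, and so creates a docking site for DNMT1. DNA ligase 1 (LIG1), when methylated, gives UHRF1 a further anchor at Okazaki fragments, and the deubiquitinase USP7 stabilises both UHRF1 and DNMT1. The remodeller HELLS, with its partner CDCA7, lets the machinery reach nucleosomal DNA, and mutations in HELLS, CDCA7 and ZBTB24, a zinc finger factor that activates CDCA7, cause immunodeficiency with loss of centromeric methylation.

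Many replication genes are controlled through E2F factors, so the members' promoters were searched for E2F-type letters. The search used TTTCCCGC, TTTCGCGC, TTTGCCGC and TTTGGCGC on both strands of the RefSeq promoters of GRCh38.p14, each running from 250 bases before to 50 after a start. A match stood in at least 1 promoter of UHRF1 (2 of 3), HELLS (1 of 1), CDCA7 (1 of 1), PCNA (1 of 2), LIG1 (1 of 1), PCLAF (1 of 2) and DNMT1 (1 of 1). None stood in the promoters of UHRF2, CDCA7L or ZBTB24, with 1 each, or of USP7, with 3. Over all 35116 promoters 3.31% held a match, and over the 27305 genes with a promoter 3.99% had one. The 56 bases around the match are printed in the direction of the gene, with the matched letters in capitals. They are shown because members with and without a match differed in their spread between HCT116 libraries, although DNMT1, with a match, lay between them.
UHRF1, chr19:4909463-4909518, plus strand: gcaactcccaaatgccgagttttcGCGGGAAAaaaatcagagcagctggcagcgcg
HELLS, chr10:94545756-94545811, plus strand: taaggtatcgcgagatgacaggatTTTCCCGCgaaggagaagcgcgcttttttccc
CDCA7, chr2:173354783-173354838, plus strand: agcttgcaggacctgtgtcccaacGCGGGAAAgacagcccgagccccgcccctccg
PCNA, chr20:5126650-5126705, minus strand: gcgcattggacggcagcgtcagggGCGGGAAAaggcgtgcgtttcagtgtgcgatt
LIG1, chr19:48170427-48170482, minus strand: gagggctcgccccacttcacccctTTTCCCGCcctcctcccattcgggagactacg
PCLAF, chr15:64381455-64381510, minus strand: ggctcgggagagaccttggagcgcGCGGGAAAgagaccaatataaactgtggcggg
DNMT1, chr19:10194924-10194979, minus strand: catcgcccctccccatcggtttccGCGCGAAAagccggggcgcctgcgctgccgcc

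These letters are a description of the sequence, not a bound site, and their absence from a window says nothing of the factor. The second matches, in another promoter of UHRF1 and further upstream in that of HELLS, are not shown.

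Library totals were 35418732 to 85991812 counts in HCT116 and 26700853 to 55732013 in DNMT1 KO. Values are given as CPM, the usual depth-scaled counts, on library totals scaled by TMM factors. The epithelial markers EPCAM, KRT8, KRT18, KRT19 and CDH1 were detected in every library, whereas VIL1 and LGALS4 stood at 0.151 CPM or less in each HCT116 library, and the T cell marker CD3E was at 0 in all 6. In DNMT1 KO, 4 of the 7 tested epithelial markers fell, among them EPCAM (log2 fold change -2.08, edgeR adjusted p at most 0.00248 over 19 alternatives) and KRT8 (-2.69, at most 0.000824), while VIL1 rose to 0.609 ± 0.141 CPM (SD, n = 4). Of 8 markers of other cell types 4 were tested, and 2 of them rose from near 0: COL3A1, a fibroblast collagen, reached 4.83 ± 3.09 CPM and PECAM1, an endothelial adhesion gene, 1.23 ± 0.351 CPM (SD, n = 4). The other fibroblast collagen, COL1A1, was at 12.5 CPM in HCT116 and 6.72 in DNMT1 KO and did not pass (log2 fold change -0.90, SE 0.42), nor did the glial marker GFAP, at 0.556 and 1.57 CPM. The remaining markers PTPRC, CD14 and ALB stood at 0.321 CPM or less in every library, and the intestinal factor CDX2 was at 30.7 and 36.0 CPM in the lines. The part of these markers in the members' values was not tested. The mean log2 CPM of 26 S phase genes was lowest in HCT116 replicates 2 and 3, at 0.50 and 0.35 times the mean over libraries, and in DNMT1 KO replicate 3, at 0.61 times, against 1.09 to 1.82 times in the other 7.

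DNMT1 (ENSG00000130816, chr19:10133345-10231286, minus strand) checks the labels. Its counts cover all exons, so the deleted exons could not be seen separately. In HCT116 it ran from 89.8 CPM in replicate 3 through a median of 135.3 to 263.2 in replicate 7, and in DNMT1 KO replicates 1 to 4 it stood at 14.1, 19.9, 21.5 and 22.3 CPM. The groups did not overlap, and DNMT1 fell by 2.97 on the log2 scale (SE 0.33, adjusted p = 1.74e-05 in edgeR's quasi-likelihood test).

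None of the 10 partners was called between the lines, which took an adjusted p under 0.05 together with a difference of more than 1 on the log2 scale, although 13.9% of the 19279 genes tested were. By edgeR's quasi-likelihood test 0 of 10 had even an unadjusted p under 0.05, against 27.6% of all genes tested, and DESeq2 called 0 as well. On the log2 scale 5 members were higher in DNMT1 KO and 5 lower, with a median of 0.00 beside a median of -0.07 over all genes. In bulk RNA, fewer cells in a phase of the cycle and less RNA per cell cannot be told apart. The members' ranges overlapped between the lines for all 10, as the plot of every library shows. The share of all tested genes with overlapping ranges was not counted, so this does not set the members apart.

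**Figure D1:**
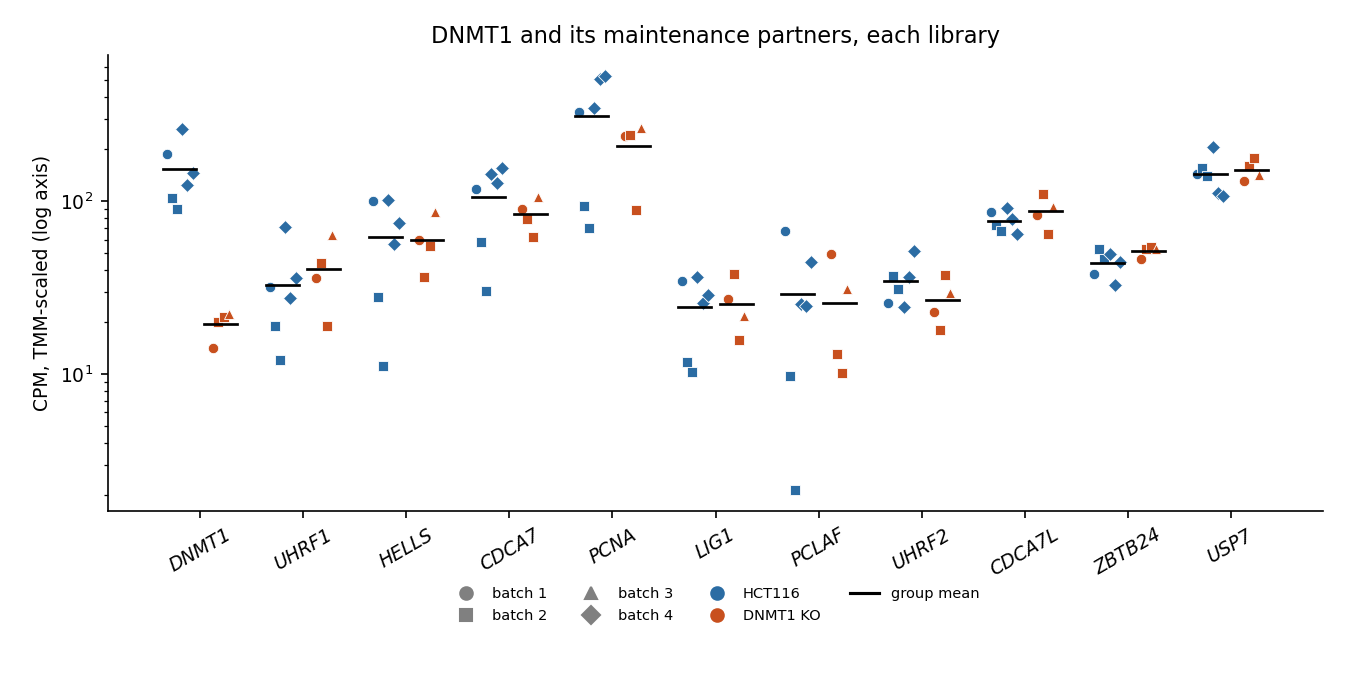
TMM-scaled CPM (log axis) of DNMT1 and its 10 partners in each of 6 HCT116 (blue) and 4 DNMT1 KO (orange) libraries; marker shapes give the batch and black bars the group mean. DNMT1 separates the lines, at 89.8 CPM or more against 22.3 or less, whereas the ranges of each partner overlap.

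Among the readers of hemimethylated DNA, UHRF1 (ENSG00000276043, chr19:4903080-4962154, plus strand) stood at 12.1 CPM at the lowest, 29.6 at the median and 70.6 at the highest in HCT116, and at 35.9, 44.1, 18.9 and 63.8 CPM in DNMT1 KO replicates 1 to 4. DNMT1 KO replicate 3 was lowest in its line, as HCT116 replicates 2 and 3 were in theirs. The log2 fold change was 0.31 (SE 0.42, 95% interval -0.60 to 1.22, edgeR adjusted p = 0.692). It ran from 0.00 without DNMT1 KO replicate 4 to 0.69 without HCT116 replicate 7, and was 0.74 with batch as a term. Its paralog UHRF2 (ENSG00000147854, chr9:6413151-6507054, plus strand), which binds similar DNA but does not replace UHRF1 in maintenance, ran from 24.4 through 33.7 to 51.6 CPM in HCT116 and stood at 22.9, 18.1, 37.3 and 29.5 CPM in DNMT1 KO. Here the batch 2 libraries of HCT116 were not the low ones, at 37.0 and 31.0 CPM. The log2 fold change of UHRF2 was -0.35 (SE 0.27, 95% interval -0.93 to 0.23, edgeR adjusted p = 0.453).

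Of the remodelling genes, HELLS (ENSG00000119969, chr10:94501434-94613905, plus strand) had 11.1 CPM in HCT116 replicate 3, 27.9 in replicate 2 and 56.2 to 101.4 in the other 4 libraries. In DNMT1 KO it had 59.3, 36.6, 55.0 and 86.4 CPM, all inside the HCT116 range. CDCA7 (ENSG00000144354, chr2:173354820-173368997, plus strand), whose product recruits HELLS, had 30.2 CPM in HCT116 replicate 3, 58.1 in replicate 2 and 117.7 to 156.5 in the other 4, beside 89.6, 78.6, 62.3 and 105.3 CPM in DNMT1 KO. All 4 DNMT1 KO values thus lay in the gap between the low and the high HCT116 libraries. The log2 fold changes were -0.06 for HELLS (SE 0.48, 95% interval -1.08 to 0.95, edgeR adjusted p = 0.949) and -0.33 for CDCA7 (SE 0.38, -1.14 to 0.48, adjusted p = 0.628).

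The CDCA7 paralog CDCA7L (ENSG00000164649, chr7:21900899-21945903, minus strand) was even across HCT116, from 64.7 through 75.7 to 91.7 CPM, and had 83.3, 109.7, 64.3 and 92.1 CPM in DNMT1 KO. Of its 3894 exonic bases 833 overlap exons of DNAH11 on the other strand, and without a stated strand setting reads from those bases cannot be told apart. ZBTB24 (ENSG00000112365, chr6:109462594-109483237, minus strand) ran from 32.7 through 45.7 to 52.8 CPM in HCT116 and stood at 46.6, 52.8, 54.4 and 53.0 CPM in DNMT1 KO. Among the members its spread was the smallest in DNMT1 KO but not in HCT116. Its DNMT1 KO libraries lay above the HCT116 median, yet they overlapped the upper HCT116 values. Neither gene passed the test, with log2 fold changes of 0.18 for CDCA7L (SE 0.21, 95% interval -0.27 to 0.64, edgeR adjusted p = 0.63) and 0.23 for ZBTB24 (SE 0.20, -0.20 to 0.66, adjusted p = 0.505).

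At the fork, the sliding clamp PCNA (ENSG00000132646, chr20:5114953-5126626, minus strand) had 93.6 and 69.7 CPM in HCT116 replicates 2 and 3, 326.4 in replicate 1 and 345.6, 512.6 and 530.7 in replicates 7 to 9. In DNMT1 KO it had 238.9, 243.0, 88.7 and 264.8 CPM. The lowest library of each line was of batch 2, and 3 of the 4 DNMT1 KO values fell between the low and the high HCT116 ones. The log2 fold change was -0.58 (SE 0.52, 95% interval -1.69 to 0.52, edgeR adjusted p = 0.514). Without the HCT116 libraries of batch 2, an alternative chosen after seeing the data, it was -0.99 (SE 0.32, adjusted p = 0.0392). PCNA has intronless pseudogene copies, and how many of its reads they took was not tested.

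LIG1 (ENSG00000105486, chr19:48115445-48170603, minus strand) had 11.8 and 10.3 CPM in HCT116 replicates 2 and 3 and 25.9 to 36.4 in the other 4, against 27.1, 38.0, 15.7 and 21.6 CPM in DNMT1 KO. PCLAF (ENSG00000166803, chr15:64364304-64387687, minus strand) had 9.7 and 2.14 CPM in HCT116 replicates 2 and 3, 24.8 to 44.5 in replicates 7 to 9 and 67.4 in replicate 1, against 49.5, 13.1, 10.2 and 31.0 CPM in DNMT1 KO. For both genes replicate 1 of either line was above the batch 2 libraries of HCT116. PCLAF also shares 1077 of its 3741 exonic bases with another annotated gene, ENSG00000259316. The log2 fold changes were 0.06 for LIG1 (SE 0.37, 95% interval -0.74 to 0.85, edgeR adjusted p = 0.941) and -0.16 for PCLAF (SE 0.67, -1.60 to 1.28, adjusted p = 0.906).

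USP7 (ENSG00000187555, chr16:8892097-8964514, minus strand) ran from 107.9 through 141.9 to 206.7 CPM in HCT116 and had 130.2, 159.0, 176.7 and 142.4 CPM in DNMT1 KO. Its batch 2 libraries stood in the middle of the HCT116 range, at 156.4 and 140.5 CPM. The log2 fold change was 0.07 (SE 0.23, 95% interval -0.41 to 0.56, edgeR adjusted p = 0.867).

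Batches 1 and 2 hold both lines and gave different pictures for the replication genes. In batch 1, with 1 library per line, the log2 ratio of DNMT1 KO to HCT116 was -0.76 for HELLS, -0.39 for CDCA7, -0.45 for PCNA, -0.35 for LIG1 and -0.45 for PCLAF. In batch 2, with 2 per line, the same ratios were 1.23, 0.67, 1.02, 1.28 and 0.98. For UHRF1 they were 0.18 and 1.02. So 5 of these 6 genes turned from lower to higher in DNMT1 KO between the batches. CDCA7L and USP7 turned the same way by smaller steps. The share of all tested genes that did so was not counted, so the turn does not set the 6 apart.

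The other members moved less, at -0.17 and -0.29 for UHRF2, -0.06 and 0.32 for CDCA7L, 0.29 and 0.11 for ZBTB24, and -0.14 and 0.18 for USP7, while DNMT1 was at -3.74 and -2.23. The difference between the batches was itself tested by an interaction term in edgeR. In that test 0 of 10 members had an adjusted p under 0.05, and so had 0 of all 18681 genes tested, so this does not set the members apart. HELLS came closest among the 10 (interaction 2.00 on the log2 scale, unadjusted p = 0.0471), and DNMT1 was at 1.51 (unadjusted p = 0.023). Of all genes tested 345 had an unadjusted p under 0.05. That test rested on 1 library per line in batch 1 and 2 per line in batch 2. With batch as a term the log2 fold changes of HELLS, CDCA7, PCNA and PCLAF were positive, at 0.59, 0.32, 0.54 and 0.50. That term leaves the difference between the lines to batches 1 and 2, since the other batches hold 1 line each. With library totals alone as the scaling HELLS and PCLAF also turned positive.

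**Figure D2:**
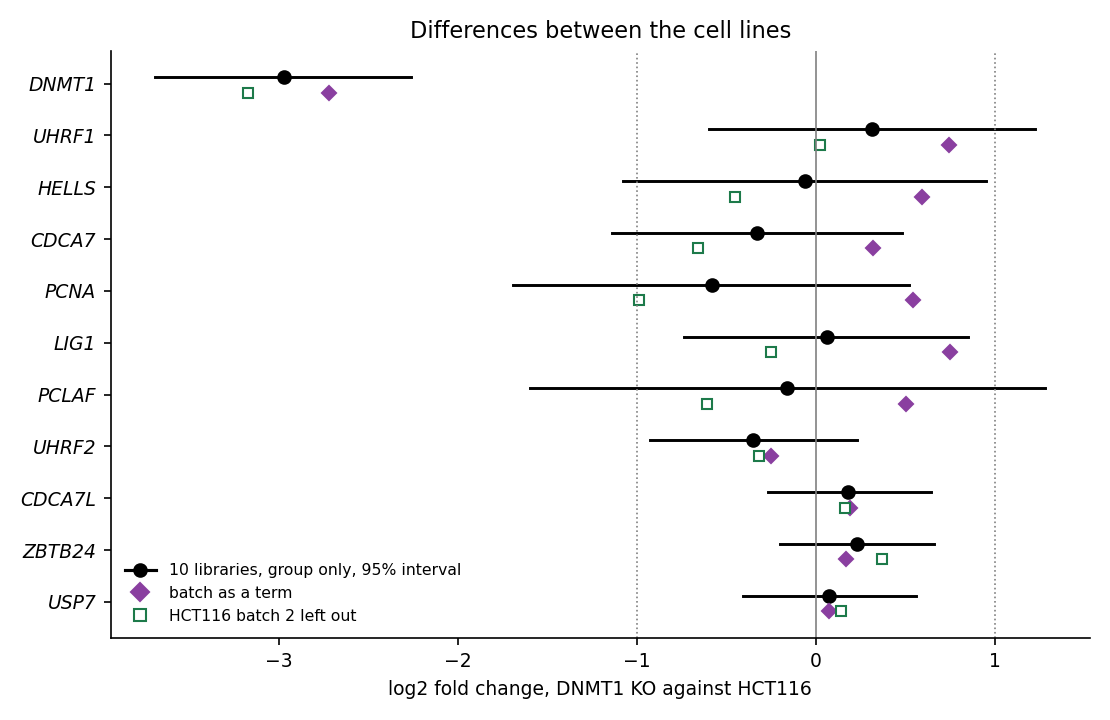
Log2 fold change of DNMT1 KO against HCT116 for DNMT1 and each partner: black points and lines, edgeR estimate over 10 libraries with its 95% interval; purple diamonds, with batch as a term; green squares, without the HCT116 libraries of batch 2. The 4 lowest genes (UHRF2, CDCA7L, ZBTB24, USP7) shift little, while those from UHRF1 to PCLAF move to the right with batch as a term and to the left without batch 2. With batch as a term only batches 1 and 2, which hold both lines, set the difference.

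The spread between the HCT116 libraries set the members apart from each other. The SD of log2 CPM over the 6 libraries was 1.78 for PCLAF, 1.27 for PCNA, 1.25 for HELLS, 0.93 for CDCA7, 0.86 for UHRF1 and 0.79 for LIG1, beside a median of 0.55 over all tested genes. It was 0.40 for UHRF2, 0.34 for USP7, 0.26 for ZBTB24 and 0.20 for CDCA7L, and 0.57 for DNMT1. PCLAF varied more than 99.2% of tested genes, with a range of 31.5-fold, whereas CDCA7L varied more than just 2.8%, with a range of 1.42-fold. The 6 members with the larger spread are those with an E2F-type match in a promoter and the 4 with the smaller spread are those without. DNMT1, which also has a match, lay between them at 0.57, near the median of all tested genes. That grouping was noticed after the values were seen and has no test.

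**Figure D3:**
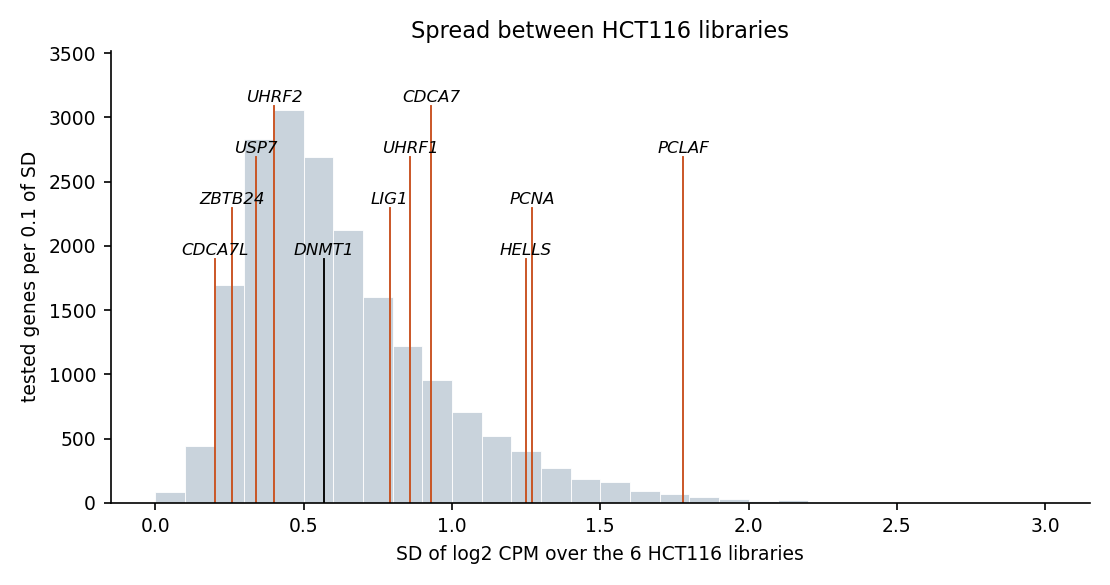
Number of tested genes (grey bars, per 0.1 of SD) by the SD of their log2 CPM over the 6 HCT116 libraries, with vertical lines at the 10 partners (orange) and DNMT1 (black); line heights carry no value. UHRF2, USP7, ZBTB24 and CDCA7L lie at 0.40 or below, DNMT1 at 0.57 close to the median of 0.55, and the other 6 at 0.79 or above.

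Over the HCT116 libraries these 6 genes lost spread when set against the S phase list. The list's mean had an SD of 0.98 on the log2 scale over the HCT116 libraries and of 0.53 over DNMT1 KO. Taken relative to that mean within each HCT116 library, the SD of CDCA7 fell to 0.20, that of LIG1 to 0.29, of UHRF1 to 0.42, of PCNA to 0.44, of HELLS to 0.45 and of PCLAF to 1.04. For UHRF2, CDCA7L, ZBTB24 and USP7 it grew instead, to 1.07, 0.88, 1.11 and 1.05, and for DNMT1 it was 0.61. For those 4 members growth was fixed in advance, since their own SD was 0.40 or less and that of the subtracted mean 0.98. It therefore says nothing further about them. The other 6 members were grouped by their larger SD over these same libraries, which made a fall more likely. The share of all tested genes that lost spread was not counted. Over the 4 DNMT1 KO libraries the pattern was not the same. There the SD fell for UHRF1 (0.74 to 0.32), PCNA (0.75 to 0.26), LIG1 (0.54 to 0.33) and PCLAF (1.06 to 0.93), but grew for HELLS (0.51 to 0.74) and CDCA7 (0.32 to 0.34), and it fell for CDCA7L (0.32 to 0.24). These are descriptions over libraries that share their batches, and whether growth state or library preparation set the S phase level was not tested.

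Relative to the S phase mean, the difference between the lines was -0.23 for CDCA7, 0.06 for LIG1, 0.31 for UHRF1, -0.41 for PCNA, 0.14 for HELLS and 0.12 for PCLAF on the log2 scale. For DNMT1 it was -2.98, close to the unscaled value.

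**Figure D4:**
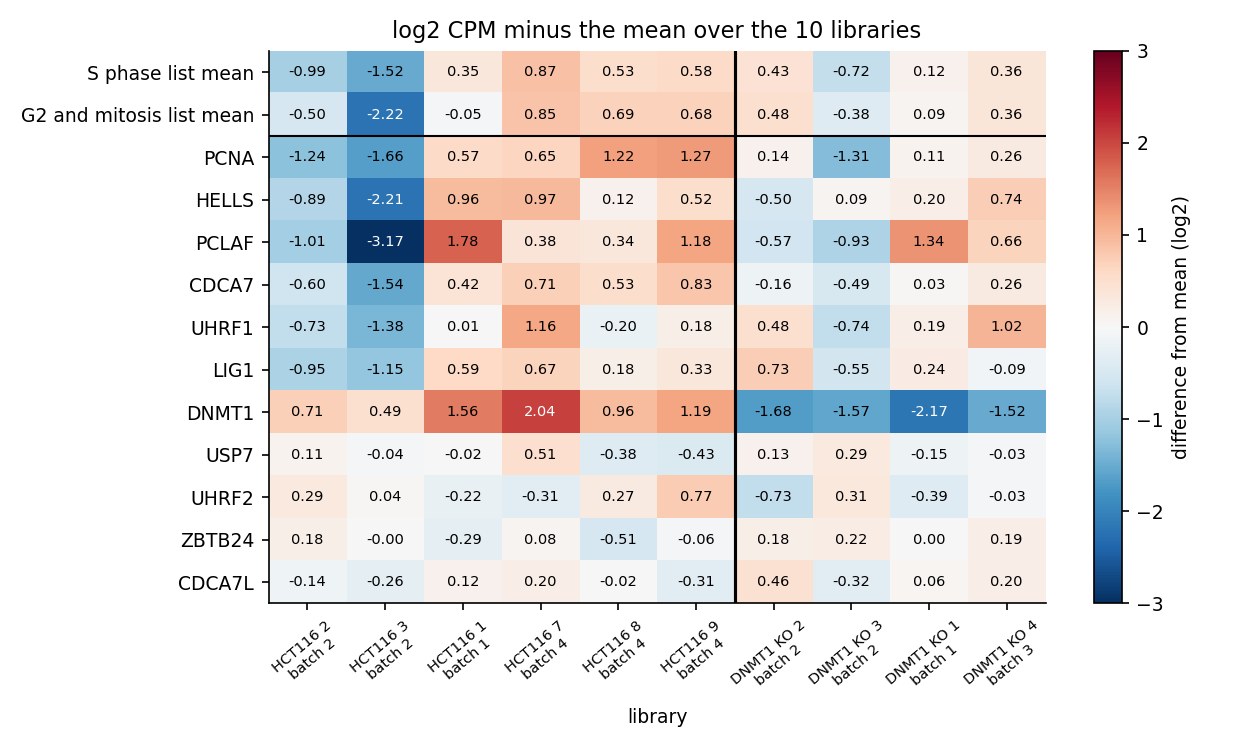
Log2 CPM minus the mean over the 10 libraries (colour and printed value) for the S phase and the G2 and mitosis list means, the 10 partners and DNMT1; columns are libraries with their batch, and the vertical line parts HCT116 from DNMT1 KO. HCT116 replicates 2 and 3 are low in the lists and in PCNA, HELLS, PCLAF, CDCA7, UHRF1 and LIG1, with -3.17 for PCLAF in replicate 3, while USP7, UHRF2, ZBTB24 and CDCA7L stay between -0.73 and 0.77 throughout.

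HCT116 batch 4 was set against HCT116 batches 1 and 2, with 3 libraries each and no difference of genotype. The batches cannot be told apart from whatever else differed between those cultures. By edgeR's quasi-likelihood test 0 of 10 members were called, beside 8.03% of the 18656 genes tested. DESeq2 called 1 of 10, PCNA, beside 2467 of the 18656 genes. On the log2 scale 8 members were higher in batch 4 and 2 lower, with a median of 0.47 against 0.01 over all genes. Unadjusted p was under 0.05 for 3 of 10 members and for 26.1% of all genes.

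Those 3 were PCNA, UHRF1 and CDCA7. PCNA had 463.0 ± 102.1 CPM in batch 4 and 163.2 ± 141.8 in batches 1 and 2 (SD, n = 3 each), a log2 fold change of 1.49 (SE 0.49, edgeR adjusted p = 0.0732, DESeq2 adjusted p = 0.0223). UHRF1 had 44.6 ± 22.9 against 20.9 ± 9.95 CPM, a log2 fold change of 1.08 (SE 0.41, edgeR adjusted p = 0.112). CDCA7 had 142.2 ± 14.9 against 68.6 ± 44.7 CPM, a log2 fold change of 1.04 (SE 0.41, edgeR adjusted p = 0.122).

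Only CDCA7 and PCNA of these had every batch 4 library above every other HCT116 library. For DNMT1 the log2 fold change was 0.46 (edgeR adjusted p = 0.47), and for UHRF2, CDCA7L, ZBTB24 and USP7 it lay between -0.13 and 0.25. Without the batch 2 libraries, an alternative chosen after seeing the data that leaves replicate 1 alone beside batch 4 and assumes it to vary as they do, the log2 fold changes shrank to 0.48 for PCNA, 0.48 for UHRF1 and 0.25 for CDCA7, and that of UHRF1 was 0.58 without replicate 7. Of the libraries left out singly, only HCT116 replicate 1, of batch 1, changed the count of members called. Without it only the batch 2 libraries stand beside batch 4. Then 6 of 10 members were called in edgeR's test, namely CDCA7, HELLS, LIG1, PCLAF, PCNA and UHRF1. The calls over all genes went from 1498 of 18656 tested to 3570 of 20014. With replicate 1 kept, edgeR without the filter called 3 members and DESeq2 1.

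The genes that work beside the members were read from lists. Of 16 genes of clamp loading, Okazaki fragment processing and chromatin assembly, 0 had an adjusted p under 0.05 in edgeR between the lines, with 6 higher and 10 lower and a median of -0.05, and 0 had an unadjusted p under 0.05 or an adjusted p under 0.05 in DESeq2. In batch 4 against batches 1 and 2, all 16 were higher with a median of 1.01 on the log2 scale, and 4 were called. They include RFC4, a clamp loader subunit (1.44, SE 0.33, edgeR adjusted p = 0.0181), and PRIM1, the primase subunit (1.95, SE 0.45, adjusted p = 0.0185). Of the 26 S phase genes 25 were higher in batch 4, with a median of 1.11, and 4 passed the adjusted p in edgeR and 13 in DESeq2, beside 3.1% of all genes that did so in that direction in edgeR. All 16 genes of G2 and mitosis were higher, with a median of 1.41, and 6 were called in edgeR, while 10 passed the adjusted p in DESeq2. To set beside these lists, 577 of all 18656 genes tested were called higher in edgeR. In DESeq2 2730 of them passed the adjusted p in either direction. The epithelial markers moved the other way from these lists. All 6 tested were lower in batch 4, with a median of -0.74 on the log2 scale, and 1 had an adjusted p under 0.05 in edgeR. That was CDH1, the epithelial cadherin, at 247.1 CPM in batches 1 and 2 and 48.1 in batch 4 (log2 fold change -2.38, edgeR adjusted p = 0.00423). The part of these markers in the members' values was not tested.

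Between the lines 0 of the 26 S phase genes and 0 of the 16 mitotic genes had an adjusted p under 0.05 in edgeR, with 0 at an unadjusted p under 0.05 and 0 by DESeq2. Their medians were -0.12 and 0.04 on the log2 scale.

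A further list held 13 genes that modify or turn over DNMT1, UHRF1 or LIG1, of which 11 were tested between the lines. Of these 1 was called higher and 1 lower, near the 13.9% called over all 19279 genes tested. HDAC1, a deacetylase known to act on DNMT1, fell from 251.5 ± 53.9 CPM (SD, n = 6) to 101.4 ± 19.3 (SD, n = 4), with every DNMT1 KO library below every HCT116 one, 128.7 against 183.9 CPM at the closest. On the log2 scale this came to -1.31 (SE 0.24, adjusted p = 0.00133 in edgeR). L3MBTL3, which directs methylated DNMT1 to degradation, rose from 15.0 ± 3.66 to 30.9 ± 3.93 CPM, again without overlap (log2 fold change 1.04, SE 0.23, edgeR adjusted p = 0.00538). The share of all tested genes that part the lines in this way was not counted. With batch as a term the log2 fold changes of HDAC1 and L3MBTL3 were -1.08 and 0.89, so that L3MBTL3 was no longer past the limit of 1. Nor was it without HCT116 replicate 8 (0.99), HCT116 replicate 9 (0.97) or DNMT1 KO replicate 1 (0.97). With the replicate block neither passed the adjusted p in edgeR (0.0504 for HDAC1 and 0.0773 for L3MBTL3). The remaining 9 tested genes of the list had adjusted p of 0.05 or more, and PHF20L1, which protects methylated DNMT1 from degradation, stood at -0.50 (SE 0.27).

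Of the de novo methyltransferases, DNMT3A was at 0.71 (SE 0.25) and DNMT3B at -0.81 (SE 0.30) on the log2 scale, and neither passed the adjusted p in edgeR (0.0641 and 0.0898), whereas DESeq2 passed DNMT3A and not DNMT3B.

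Levels can be compared between genes only per length of exon. The length used joins all annotated exons of a gene, so the order of genes depends on the annotation. In HCT116 the order of mean CPM per kb was PCNA at 223.2, CDCA7 at 26.8, CDCA7L at 19.8, USP7 at 17.2, DNMT1 at 15.6, ZBTB24 at 7.98, PCLAF at 7.76, UHRF1 at 6.37, HELLS at 6.11, LIG1 at 3.74 and UHRF2 at 3.46. PCNA alone had a range apart from its neighbour, at 49.7 to 378.2 against 7.67 to 39.8 CPM per kb for CDCA7. DNMT1 exceeded ZBTB24 in 6 of 6 libraries although the ranges overlapped, and the pairs ZBTB24 and PCLAF, PCLAF and UHRF1, UHRF1 and HELLS, LIG1 and UHRF2, and USP7 and DNMT1 were in this order in 3 of 6. In DNMT1 KO the mean of DNMT1 was 1.99 ± 0.376 CPM per kb, below that of every partner.

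Ratios of counts per kb within a library do not depend on its total. The ratio of UHRF1 to DNMT1 was 0.32, 0.347, 0.256, 0.511, 0.42 and 0.467 in HCT116 replicates 1, 2, 3, 7, 8 and 9 and 4.83, 4.22, 1.67 and 5.45 in DNMT1 KO replicates 1 to 4. DNMT1 had more counts per kb than UHRF1 in every HCT116 library and fewer in every DNMT1 KO library. The log2 difference was 3.29, a change of 9.8-fold in the geometric mean, with an exact permutation p of 0.00952 (two-sided), the smallest that 210 splits can give, and 0.0571 when adjusted over the 6 ratios compared. It was 3.92 within batch 1 and 3.16 within batch 2.

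DNMT1 is the targeted gene, and its own log2 fold change of -2.97 makes up most of the difference in the ratio of UHRF1 to DNMT1. UHRF1 by itself was not called (log2 fold change 0.31), and the permutation p of the ratio says nothing further about it. The other 5 ratios, UHRF1 to UHRF2, CDCA7 to CDCA7L, CDCA7 to HELLS, PCLAF to PCNA and LIG1 to PCNA, differed between the lines by -0.37 to 0.75 on the log2 scale, with exact permutation p from 0.267 to 0.505 and adjusted p from 0.423 to 0.505.

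**Figure D5:**
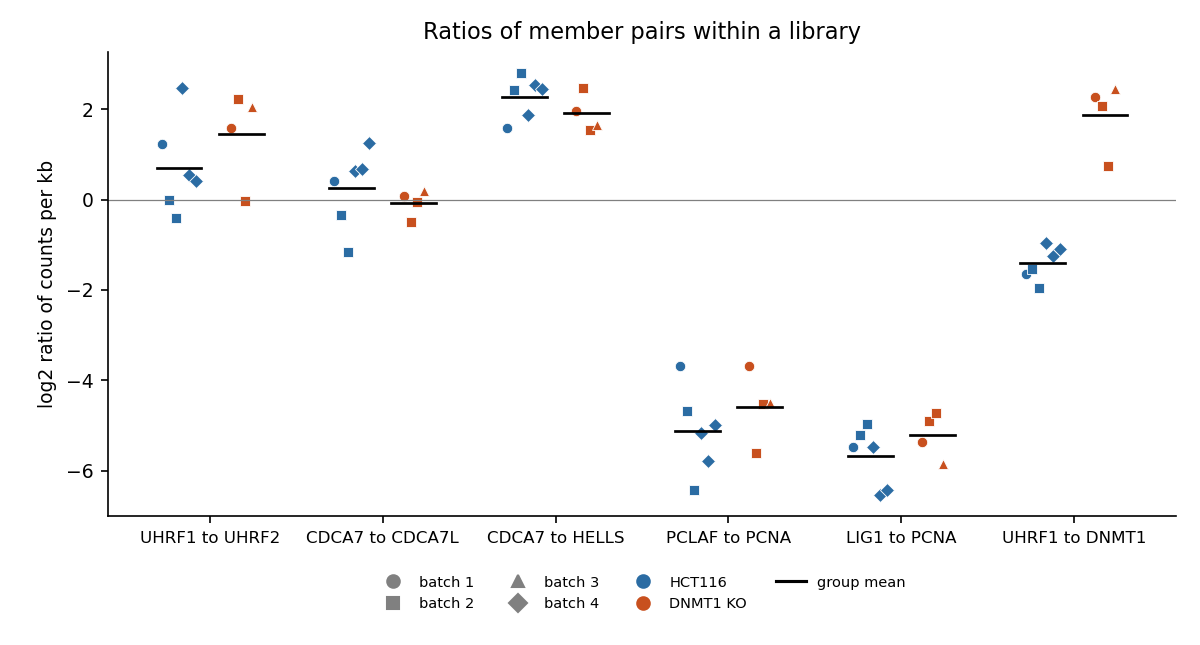
Log2 ratio of counts per kb of exon between 2 genes of the same library, for 6 pairs; blue, 6 HCT116 libraries; orange, 4 DNMT1 KO libraries; marker shapes give the batch and black bars the mean log2 ratio. UHRF1 to DNMT1 is below 0 in each HCT116 library and above 0 in each DNMT1 KO library, and the lines overlap in the other 5 pairs.

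Likeness of profile was measured as the root mean square distance between log2 CPM values centred on their means, over 14287 genes with a symbol and at least 1 CPM. Over the 10 libraries UHRF1 was nearest to MCM2, a subunit of the replicative helicase (0.20), then to CHAF1A, the large subunit of chromatin assembly factor 1 (0.24), and RBM14 (0.26). CDCA7 was nearest to DONSON (0.13), a replication initiation factor, RAD18 (0.15) and MCMBP (0.16), and HELLS to PKMYT1 (0.24), ZNF367 (0.29) and CHRNA5 (0.30). CDCA7 was the 29th nearest gene to HELLS, at 0.43 against a median distance of 1.03. Seen from CDCA7, HELLS was in place 699 at the same distance, against a median of 0.82, behind LIG1 in place 470 and PCNA in place 697.

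DNMT1 was nearest to ARAF (0.34), KSR2 (0.34) and CAPN10 (0.38) over the 10 libraries. Over the 6 HCT116 libraries alone, where its targeting plays no part, it was nearest to PES1 (0.07), SLC25A22 (0.08) and HNRNPAB (0.08). Among the partners UHRF1 came first there, in place 824 at a distance of 0.34, followed by LIG1 in place 993 at 0.36 and CDCA7L in place 1437 at 0.39. PCNA was in place 11679 at 0.92 and PCLAF in place 13722 at 1.31, both beyond the median distance of 0.67. A distance is small also where both genes vary little, as for CDCA7L.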

How the data were processed

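Poly(A)-selected, stranded, paired-end RNA-seq libraries were made by the authors, who trimmed reads with TrimGalore 0.4.1 after FastQC 0.11.4, aligned them to hg38 by bowtie2 (an unspliced aligner, so junction reads can be lost), filtered on mapping quality and ran featureCounts over exons, no strand setting being given. Each library has its own deposited table of unnormalised counts, and replicates were not pooled. Another 3 columns, HCT116 replicates 4 to 6, match no sample in the labels and were not used here.

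Symbols were mapped by Ensembl identifier, and coordinates are hg38. The test on counts used edgeR 4.0.16 under R 4.3.3 (TMM, default filterByExpr, quasi-likelihood F test, group as sole term, two-sided), with Benjamini-Hochberg adjustment over all tested genes. DESeq2 1.42.0 was an alternative, as were other size factors, no filter, batch as a term, a replicate block, halved counts and leaving out each library. Ratios were compared by exact permutation (scipy 1.17.1). Standard errors are the fold change divided by the square root of F. Named genes were all members, up to 3 per list by smallest p, all cell type markers, and the 3 nearest profiles of DNMT1, UHRF1, HELLS and CDCA7. The members and lists were chosen with earlier results of these data known. Scripts were tested on simulated data.

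Among genes with 1 to 10 counts, 64.4 to 70.0% were even in 9 libraries and 39.9% in DNMT1 KO replicate 4, so counts may overstate independent fragments. Replicate numbers 1 to 3 did not pair the samples (correlations of deviations 0.46, -0.20 and 0.37).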

Additional observations from a re-analysis of the deposited data

Results flagged for a closer look

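Each member and DNMT1 was examined for a library far from the others of its line, as was each of the 6 ratios, in 34 groups of 4 or 6 libraries in all. PCNA in DNMT1 KO stood out, with replicate 3 at 88.7 CPM and the other 3 libraries between 238.9 and 264.8 CPM. Chance gives about 1 in 20 groups, or 1.7 of 34. The S phase list mean of that library was 0.61 times the mean over libraries, the lowest of the 4, and without it the log2 fold change of PCNA was -0.29 (SE 0.53, edgeR adjusted p = 0.786).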

How the results depend on the processing

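The count of members called between the lines was 0 in all 19 alternatives, including DESeq2 and without the HCT116 libraries of batch 2. Signs were less steady. HELLS, CDCA7, PCNA and PCLAF turned positive with batch as a term (0.59, 0.32, 0.54 and 0.50). They were also positive in batches 1 and 2 with that term (0.59, 0.32, 0.54 and 0.51) and with the replicate block (0.62, 0.36, 0.42 and 0.70), which called no member. These settings are not independent of each other. All take the difference between the lines from the libraries of batches 1 and 2, since the other batches hold 1 line each. Library totals alone, which moved the median of all genes from -0.07 to 0.14, gave 0.16 for HELLS and 0.04 for PCLAF. Leaving out 1 library gave 0.00 to 0.69 for UHRF1, -0.31 to 0.17 for HELLS, -0.20 to 0.27 for LIG1 and -0.64 to 0.32 for PCLAF; LIG1 was -0.25 without HCT116 batch 2. In the comparison of HCT116 batches, no filter called 3 members, DESeq2 1 and leaving out 1 library 0 to 6; calls over all genes were 1498, against 2483, 2467 and 234 to 3570, and 490 without batch 2. Without batch 2 the change was -0.40 for HELLS, -0.17 for CDCA7L, 0.13 for ZBTB24, -0.20 for LIG1, -1.12 for PCLAF and -0.10 for DNMT1. USP7 was 0.00 with no filter. Leaving out 1 library there gave -0.07 to 0.47 for UHRF2, -0.10 to 0.15 for CDCA7L, -0.26 to 0.03 for ZBTB24, -0.44 to 0.09 for USP7 and -0.30 to 2.41 for PCLAF. The ratio of CDCA7 to CDCA7L turned to 0.20 in batches 1 and 2 alone, where that of UHRF1 to DNMT1 was 3.41 with an exact permutation p of 0.1, the smallest 3 against 3 libraries allow. The causes were not tested beyond these values. Low counts limit PCLAF most, with 80 counts in HCT116 replicate 3.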
